A study of Arabidopsis thaliana with 12 samples.

Results

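The comparison described here is that of *rev-5* with the Col-0 wild type in simulated shade. It rests on 4 of the 12 RNA-seq libraries of the series, 2 of *rev-5* seedlings (replicates 11 and 12) and 2 of Col-0 seedlings (replicates 3 and 4), chosen by genotype and light alone. All 4 came from whole *Arabidopsis thaliana* seedlings on plates kept under white light (WL) for 2 days, after which far-red light was added for 8 days (WL+FR). Of the 32824 genes in the deposited tables, 18788 were above 0 in all 12 libraries with a mean of at least 0.5 TPM, and these were tested. The same genotypes kept in WL for the whole time (2 libraries each) show where the difference depended on the light. Libraries labelled wox4, also 2 in each light, entered only the choice of tested genes and the estimate of the spread, unless they are named. The reason is that *WOX4* itself is far above Col-0 in them. The 2 libraries of a group are biological replicates by the study's account, and nothing more is given about separate sowings. The *rev-5* allele carries an amino acid substitution in REVOLUTA (*REV*), so the level of *REV* mRNA does not test the genotype.

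*REV* belongs to the class III HD-ZIP transcription factors (homeodomain with a leucine zipper) and acts in the upper side of leaves, in meristems and in vascular tissue. Far-red light reflected by neighbours inactivates phytochromes, which releases PIF transcription factors that switch on growth genes such as *ATHB2*. *Arabidopsis* also makes chemical defences, among them aliphatic glucosinolates from methionine, indole glucosinolates and camalexin from tryptophan, and jasmonates from chloroplast lipids.

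Levels are in TPM, a length-corrected share of transcripts obtained by rescaling the deposited FPKM values to the same sum in each library. Differences are in log2(TPM + 1), given as *rev-5* minus Col-0 with their standard error, and this scale understates the change of genes with low levels. Adjusted p values are those of limma, Benjamini-Hochberg adjusted over all tested genes, and "called" means an adjusted p under 0.05. With 2 against 2 libraries no exact permutation test can reach 0.05, so the tests rest on the spread shared by genes and groups. Median estimated fragments per tested gene lay between 148 and 161 in the 4 libraries. Pearson correlations of log2 values were 0.99 to 0.992 within groups and 0.973 to 0.991 between groups.

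Upstream sequences are shown for examples of the gene groups that led the comparison, with a known element marked in each. They come from genes of aliphatic glucosinolate synthesis, of which 16 of 23 tested were called lower in *rev-5*, from wall protein and peroxidase genes among the largest increases, and from the camalexin and indole cyanogenic pathway, of which 4 of 8 tested were called higher. Each sequence holds the 250 bases before the annotated start, 5′ to 3′ in the direction of the gene, from the RefSeq assembly TAIR10.1. The first set has the AC element in capitals, letters that many MYB transcription factors recognise (ACCTACC, with ACCAACC and ACCTAAC as variants). *CYP83A1*, at chr4:7992430-7992679 on the minus strand, and *IPMI_SSU3*, at chr3:21798304-21798553 on the minus strand, hold 1 match each.
CYP83A1: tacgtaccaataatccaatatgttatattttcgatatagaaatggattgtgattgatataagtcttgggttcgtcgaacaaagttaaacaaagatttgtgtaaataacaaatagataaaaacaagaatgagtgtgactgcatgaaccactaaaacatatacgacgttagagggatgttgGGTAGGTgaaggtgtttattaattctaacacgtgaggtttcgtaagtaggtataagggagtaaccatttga
IPMI_SSU3: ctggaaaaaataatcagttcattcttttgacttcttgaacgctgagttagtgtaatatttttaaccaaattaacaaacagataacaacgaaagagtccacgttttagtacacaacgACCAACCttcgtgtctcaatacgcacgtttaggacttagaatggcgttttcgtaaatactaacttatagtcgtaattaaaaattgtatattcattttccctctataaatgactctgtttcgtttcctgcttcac
The second set has the core of the root hair element in capitals (TGNNNNCACG or TGNNNNNCACG), which is known from promoters of root hair genes. *PRP1* lies downstream of chr1:20504651-20504900 on the plus strand, *PER60* of chr5:7426060-7426309 on the plus strand and *EXT12* of chr4:7783541-7783790 on the plus strand.
PRP1: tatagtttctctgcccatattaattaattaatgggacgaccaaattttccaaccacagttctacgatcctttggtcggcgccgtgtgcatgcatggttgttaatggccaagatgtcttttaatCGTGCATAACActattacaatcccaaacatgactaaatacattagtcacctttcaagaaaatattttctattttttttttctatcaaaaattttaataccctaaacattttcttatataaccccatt
PER60: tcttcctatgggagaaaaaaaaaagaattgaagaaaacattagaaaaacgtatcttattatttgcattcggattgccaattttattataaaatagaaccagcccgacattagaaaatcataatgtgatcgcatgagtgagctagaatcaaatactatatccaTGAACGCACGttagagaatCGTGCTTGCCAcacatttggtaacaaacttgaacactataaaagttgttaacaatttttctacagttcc
EXT12: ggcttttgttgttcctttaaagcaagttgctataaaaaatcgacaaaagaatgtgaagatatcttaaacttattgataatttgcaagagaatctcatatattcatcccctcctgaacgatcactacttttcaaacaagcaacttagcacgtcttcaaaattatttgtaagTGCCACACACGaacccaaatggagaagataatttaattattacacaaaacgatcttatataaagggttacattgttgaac
The third set has the core of the W-box in capitals (TTGAC), which WRKY transcription factors recognise. *FOX1*, with chr1:9128569-9128818 on the minus strand, holds 4 matches, and its neighbour *FOX2*, with chr1:9131780-9132029 on the minus strand, holds 1.
FOX1: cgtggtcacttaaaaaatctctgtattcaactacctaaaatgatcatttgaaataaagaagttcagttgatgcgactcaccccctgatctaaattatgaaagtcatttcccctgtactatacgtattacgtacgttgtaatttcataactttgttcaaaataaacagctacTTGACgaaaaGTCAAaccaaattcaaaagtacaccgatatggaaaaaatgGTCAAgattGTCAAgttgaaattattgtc
FOX2: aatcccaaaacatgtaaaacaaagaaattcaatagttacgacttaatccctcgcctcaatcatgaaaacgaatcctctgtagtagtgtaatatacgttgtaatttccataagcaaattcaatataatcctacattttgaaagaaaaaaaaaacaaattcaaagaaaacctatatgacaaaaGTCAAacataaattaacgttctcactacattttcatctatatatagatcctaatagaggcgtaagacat

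Both strands were searched, and capitals mark a match on either strand. AC elements were found upstream of 9 of 23 tested aliphatic glucosinolate genes (39.1%) and of 6.2% of the 17440 tested genes with an upstream sequence. The root hair core was found for 9.4% of all. Genes annotated ROOT HAIR SPECIFIC, such as *PER60*, were named with the help of a screen for this element, so its presence there is no result of these data. W-box cores were found for 6 of 7 members of the camalexin and cyanogenic list with an annotated start (85.7%), against 45.1%. The root hair core shares the letters CACG with the G-box (CACGTG), which 7.4% of all genes held. These matches describe the letters in the window and are not measured binding sites.

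Called genes made up 4.63% of those tested, 458 higher (2.44%) and 412 lower (2.19%) in *rev-5*. At an absolute log2 difference over 1 and an adjusted p under 0.001, 31 genes (0.165%) passed, 24 lower (0.128%) and 7 higher (0.0373%). The median difference over all tested genes was 0.02. Groups did not overlap for 26.9% of tested genes with *rev-5* higher and for 21.3% with *rev-5* lower. The count of 31 was 19 without Col-0 replicate 3 and 18 without Col-0 replicate 4, and the count of 870 called genes lay between 347 and 542 when any 1 of the 4 libraries was left out. In WL, on other libraries, 6.08% were called, of which 642 genes were higher (3.42%) and 501 lower (2.67%). Of the genes higher in WL+FR, 220 (48.0%) were also called higher in WL, where they made up 34.3% of the genes called higher. Of the genes lower in WL+FR, 160 (38.8%) were also called lower in WL, 31.9% of the genes called lower there.

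**Figure D1:**
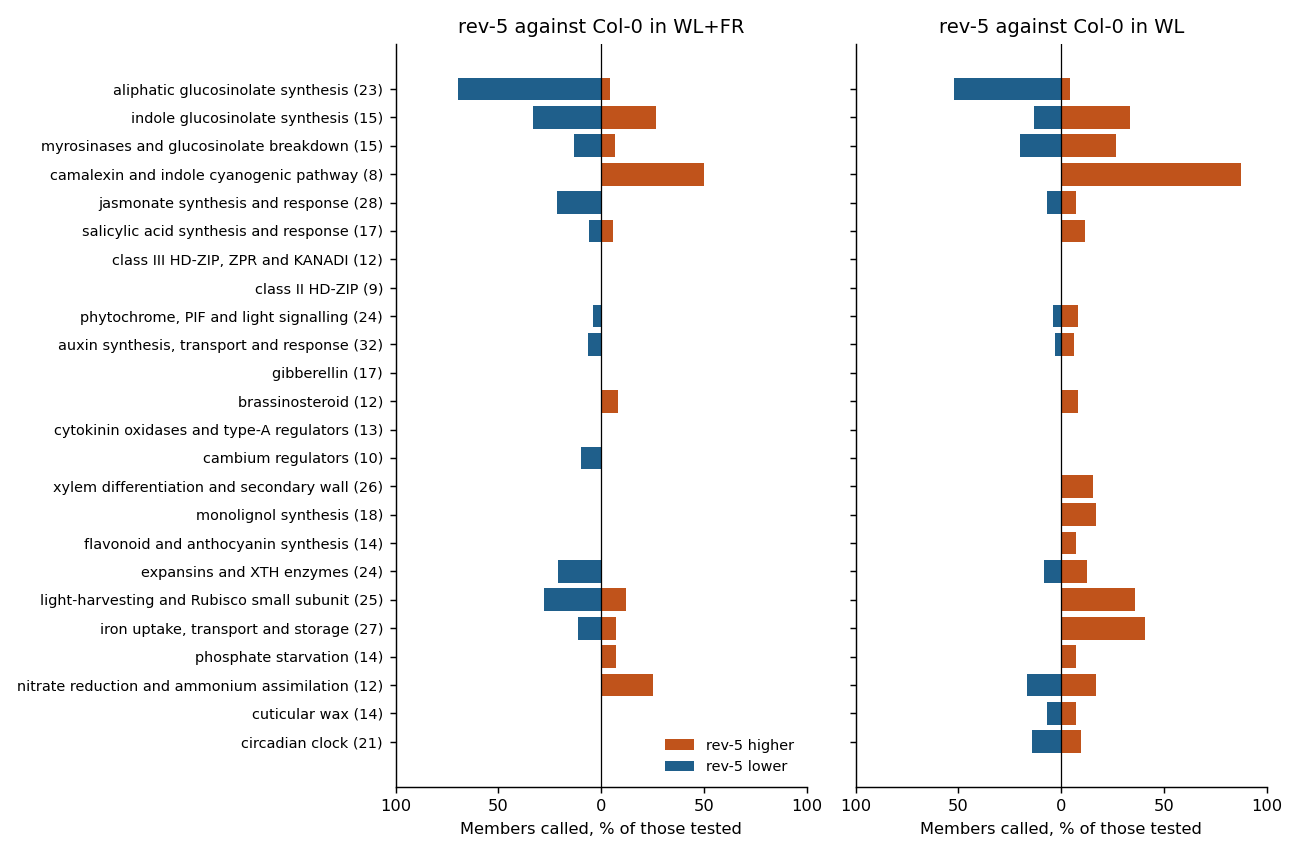
Share of each gene list's tested members (number in brackets) that were called higher (orange, to the right) or lower (blue, to the left) in *rev-5* than in Col-0, in WL+FR and in WL. In WL+FR 16 of 23 aliphatic glucosinolate genes were called lower and 4 of 8 camalexin and cyanogenic genes higher, while lists such as class III HD-ZIP had 0 called.

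Aliphatic glucosinolate synthesis was the list with the most called members. Of 27 listed genes 23 were tested, 16 of them were called lower, 1 was called higher and 6 passed in neither direction. Of all tested genes 2.19% were called lower and 2.44% higher. The median difference over the list was −0.97. In bulk RNA of whole seedlings, fewer cells of a type and less RNA per cell cannot be told apart. In WL the same list had 12 called lower and 1 higher, with a median of −0.48.

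The pathway first lengthens the side chain of methionine. *MAM1*, the methylthioalkylmalate synthase that adds carbons to the chain, stood at 35.8 and 37.1 TPM in Col-0 and at 14.5 and 15.1 TPM in *rev-5*. The difference was −1.24 ± 0.09 (adjusted p 1.01e-05). *IPMI_SSU2*, a small subunit of the isopropylmalate isomerase, stood at 72.2 and 64.7 TPM in Col-0 and at 19.98 and 26.65 TPM in *rev-5* (−1.52 ± 0.11, adjusted p 1.21e-05). The groups lay far apart for both genes. *IPMI_SSU3*, a second small subunit, differed by −1.15 ± 0.09, and *BASS5*, which carries chain-elongation intermediates into the chloroplast, by −1.23 ± 0.15. *BCAT4*, the aminotransferase that starts the chain, was low in all 4 libraries, at 3.09 and 2.15 TPM in Col-0 and 0.93 and 0.737 TPM in *rev-5*. The large subunit *IPMI_LSU1*, which leucine synthesis also uses, differed by −0.25 ± 0.11 and was not called.

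The core structure is then built by cytochromes P450 and conjugating enzymes. *CYP79F1* (*AT1G16410*, chromosome 1, 5608682 to 5612064), which turns the elongated methionine into an aldoxime, stood at 13.4 and 14.4 TPM in Col-0 and at 4.16 and 4.17 TPM in *rev-5*. This was −1.53 ± 0.12 with an adjusted p of 1.93e-05. Its tandem copy *CYP79F2* differed by −1.27 ± 0.17, and reads of these near-identical genes may have been split between them. *CYP83A1* (*AT4G13770*, chromosome 4, 7990429 to 7992429), the next enzyme, fell from 126 and 119 TPM in Col-0 to 47.4 and 40.5 TPM in *rev-5* (−1.46 ± 0.07, adjusted p 3.59e-07). The glutathione transferase *GSTU20* stood at 219 and 230 TPM in Col-0 and at 111 TPM in both *rev-5* libraries (−1.01 ± 0.05, adjusted p 6.85e-07). *GSTF11*, of the same step, differed by −1.28 ± 0.16.

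Later steps followed. The sulfotransferases *SOT18* and *SOT17*, which finish the core, differed by −0.72 ± 0.07 and −0.40 ± 0.08, and the glucosyltransferase *UGT74C1* by −0.40 ± 0.06. *SUR1*, a lyase that indole glucosinolates need too, differed by −0.35 ± 0.12 and was not called. Among the S-oxygenases that modify the side chain, *GSOX1* (−1.15 ± 0.18) and *GSOX3* (−1.07 ± 0.19) were lower, *GSOX2* and *GSOX5* were not called, and *GSOX4* was higher. *GSOX4* stood at 26.3 and 28.5 TPM in Col-0 and at 38.4 and 40.0 TPM in *rev-5* (0.50 ± 0.08, adjusted p 0.00405). Of the MYB regulators of the pathway, *MYB29* fell from 7.55 and 9.43 TPM to 4.79 and 3.96 TPM (−0.82 ± 0.14, adjusted p 0.00626). *MYB28* stood at 70.7 and 79.4 TPM in Col-0 and 71.8 and 68.6 TPM in *rev-5*, which overlap (−0.09 ± 0.07).

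The decrease of *CYP83A1* and of *GSTU20* was larger in WL+FR than in WL. In WL, *CYP83A1* stood at 113.5 and 113.8 TPM in Col-0 and at 75.7 and 74.7 TPM in *rev-5*, and the difference between the lights was −0.87 ± 0.10 (adjusted p 0.00246). For *GSTU20* it was −0.66 ± 0.07 (adjusted p 0.00246). These were the only 2 of the 23 called in that test, although 21 of the 23 lay below 0 in it with a median of −0.36. Libraries labelled wox4 in WL+FR, set against the same 2 Col-0 libraries, had a median of −0.37 over the list, with *CYP83A1* at −0.38 and *MAM1* at −0.47. Because the Col-0 libraries are shared, these values are not independent of those of *rev-5*. The number of list members called lower in *rev-5* lay between 13 and 14 when any 1 library was left out.

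**Figure D2:**
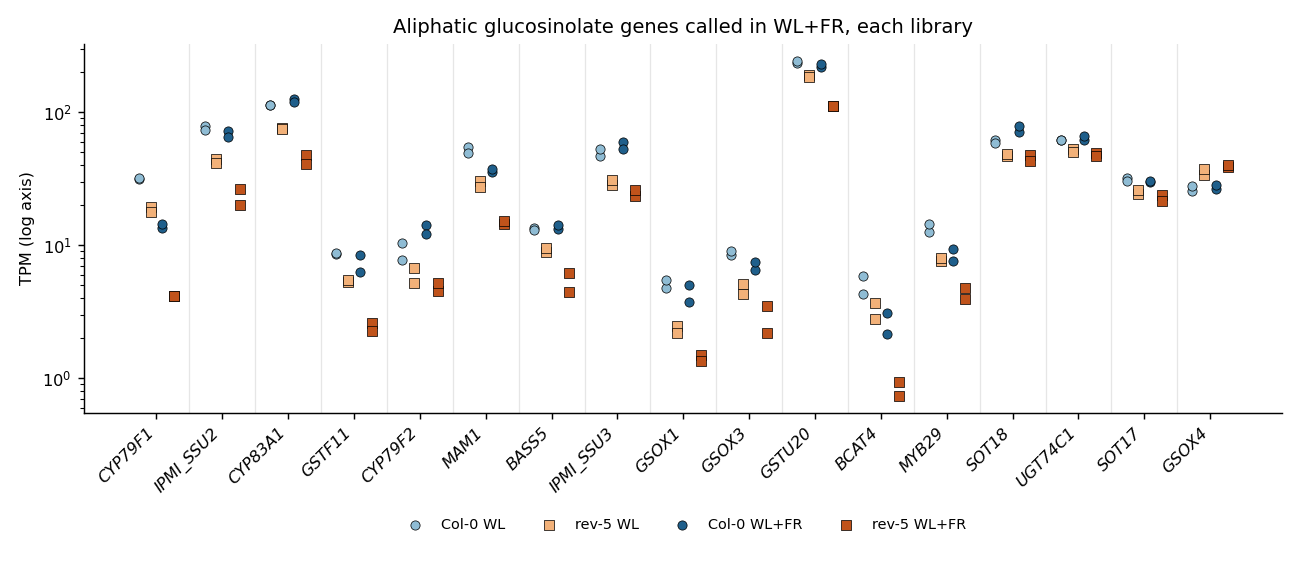
TPM on a log axis of the 17 aliphatic glucosinolate genes called in WL+FR, ordered by their difference, with 1 point per library and 2 libraries per group. The dark orange squares (*rev-5* in WL+FR) lie below the dark blue circles (Col-0 in WL+FR) for 16 genes, and above them for *GSOX4*.

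Indole glucosinolate genes went in both directions. Of 15 tested, 5 were lower and 4 higher (2.19% and 2.44% of all tested genes), with a list median of −0.04. The lower genes belong to the core pathway. *GSTF9*, a glutathione transferase, stood at 1283 and 1292 TPM in Col-0 and 937 and 927 TPM in *rev-5* (−0.47 ± 0.03, adjusted p 1.17e-05). *UGT74B1* (−0.36 ± 0.07), *SOT16* (−0.30 ± 0.07), *CYP83B1* (−0.23 ± 0.05) and *GSTF10* (−0.23 ± 0.04) were lower by less. The higher genes modify the indole ring. *IGMT2*, a methyltransferase, stood at 25.3 and 26.3 TPM in Col-0 and 39.2 and 41.5 TPM in *rev-5* (0.63 ± 0.09). *IGMT1* (0.50 ± 0.05), the hydroxylase *CYP81F2* (0.56 ± 0.09) and *CYP81F4* (0.26 ± 0.04) were also higher. *IGMT1* and *IGMT2* are close copies, and the split of reads between them is uncertain. The count of 5 lower genes was 2 without Col-0 replicate 3 or *rev-5* replicate 11 and 3 without Col-0 replicate 4 or *rev-5* replicate 12, and *UGT74B1* lost its call in each case.

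Of 15 tested genes of glucosinolate breakdown 3 were called, against 4.63% of all tested genes. *MBP1*, a myrosinase-binding protein, fell from 32.7 and 38.6 TPM to 11.8 and 10.8 TPM (−1.57 ± 0.11, adjusted p 7.87e-06). *ESM1*, which favours isothiocyanates over nitriles as breakdown products, fell from 49.4 and 44.9 TPM to 21.7 and 24.9 TPM (−0.99 ± 0.07). In WL both were lower too, with a difference of −1.13 for *MBP1* and −1.47 for *ESM1*. The myrosinase *TGG1* was higher, at 224 and 228 TPM in Col-0 and 291 and 301 TPM in *rev-5* (0.39 ± 0.04, adjusted p 0.000336). In WL *TGG1* was not called (−0.06 ± 0.04, adjusted p 0.472), and the difference between the lights was 0.45 ± 0.06 (adjusted p 0.00815).

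Jasmonate genes called in WL+FR were all lower in *rev-5*. Of 28 tested, 6 were called lower and 0 higher (2.19% and 2.44% of all tested genes), and the list median was −0.13. The called genes encode the first enzymes of synthesis and 1 response gene. *LOX2* (*AT3G45140*, chromosome 3, 16525245 to 16529352), the chloroplast lipoxygenase at the start of the pathway, stood at 93.7 and 98.9 TPM in Col-0 and 51.3 and 52.5 TPM in *rev-5* (−0.88 ± 0.05, adjusted p 4.04e-06). In WL it stood at 128.7 and 128.6 TPM in Col-0 and 121.6 and 119.0 TPM in *rev-5*. *LOX2* was thus lower mainly in shade, and the difference between the lights was −0.78 ± 0.08 (adjusted p 0.00126).

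The allene oxide cyclases followed. *AOC1* fell from 35.7 and 36.4 TPM to 20.7 and 17.7 TPM (−0.88 ± 0.11), and *AOC2* from 90.2 and 92.1 TPM to 61.0 and 58.2 TPM (−0.60 ± 0.05, adjusted p 4.65e-05). The tandem AOC genes are alike in sequence. *AOS*, the enzyme before them, was lower by little (−0.18 ± 0.04), *LOX3* by −0.87 ± 0.20 at levels under 4 TPM, and the storage protein gene *VSP2* by −0.50 ± 0.12. The count of 6 was 3 without Col-0 replicate 4, without *rev-5* replicate 11 and without *rev-5* replicate 12.

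Salicylic acid genes were called once in each direction among 17 tested, against 4.63% of all tested genes in both directions together. The transcription factor gene *WRKY70* stood at 13.9 and 13.1 TPM in Col-0 and 20.6 and 21.0 TPM in *rev-5* (0.58 ± 0.14), and *PR5* at 6.45 and 6.43 TPM and 3.501 and 3.28 TPM (−0.76 ± 0.15). Both calls were lost when any 1 of the 4 libraries was left out.

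Genes of camalexin and of the related indole cyanogenic pathway were higher. Of 10 listed genes 8 were tested, all 8 lay above 0 and 4 were called, with a list median of 0.44. Of all tested genes 2.44% were called higher. *CYP71A12* (*AT2G30750*, chromosome 2, 13099486 to 13101371), which makes indole acetonitrile, stood at 50.8 and 54.1 TPM in Col-0 and at 100.1 and 99.3 TPM in *rev-5* (0.91 ± 0.06, adjusted p 7.87e-06). *CYP71A13*, a related gene of the list, stood at 0 in all 4 libraries and was not tested. A value of 0 can be a failed estimate, so the split of reads between them is uncertain. *FOX2*, a berberine bridge-type oxidase, stood at 38.4 and 33.7 TPM in Col-0 and 82.0 and 78.0 TPM in *rev-5* (1.13 ± 0.09). *FOX1*, a flavin oxidase of the cyanogenic branch, rose from 34.7 and 33.8 TPM to 53.9 and 49.6 TPM (0.58 ± 0.09), and *FOX4* by 0.52 ± 0.13. These oxidase genes stand in tandem on chromosome 1. *FOX4* was called with an adjusted p of 0.0454, and the count of 4 was 3 when any 1 library was left out.

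All 8 members lay lower in the WL+FR difference than in the WL difference, and 4 of them were called in that test. In WL 7 of the 8 were called higher, with a median of 1.31. *CYP71A12* stood at 20.8 and 21.0 TPM in Col-0 in WL and at 68.5 and 64.8 TPM in *rev-5* in WL, a difference of 1.63 ± 0.06. The difference between the lights was −0.71 ± 0.09 (adjusted p 0.0041) for *CYP71A12*, −0.84 ± 0.13 for *FOX2* and −0.78 ± 0.12 for *FOX1*. For *CYP82C2*, the hydroxylase of the cyanogenic branch, it was −1.35 ± 0.22 (adjusted p 0.0248). *CYP82C2* rose in *rev-5* in WL (1.38 ± 0.16) and stood in WL+FR at 6.98 and 7.54 TPM in Col-0 and 6.52 and 8.44 TPM in *rev-5*. The 95% interval of its WL+FR difference ran from −0.31 to 0.37. The calls of the difference between the lights for *FOX1*, *FOX2* and *CYP82C2* were each lost without Col-0 replicate 3, without *rev-5* replicate 11 and without Col-0 replicate 1 of WL, among others, and that of *CYP71A12* held without any 1 library. Other genes known from immune responses were named after their values were seen. *NHL10* stood at 21.6 and 18.3 TPM in Col-0 and at 43.1 and 44.6 TPM in *rev-5* (1.1 ± 0.1). *AT5G44440*, a berberine bridge-type gene, stood at 23.2 and 21.4 TPM and at 46.5 and 42.3 TPM (0.96 ± 0.12).

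**Figure D3:**
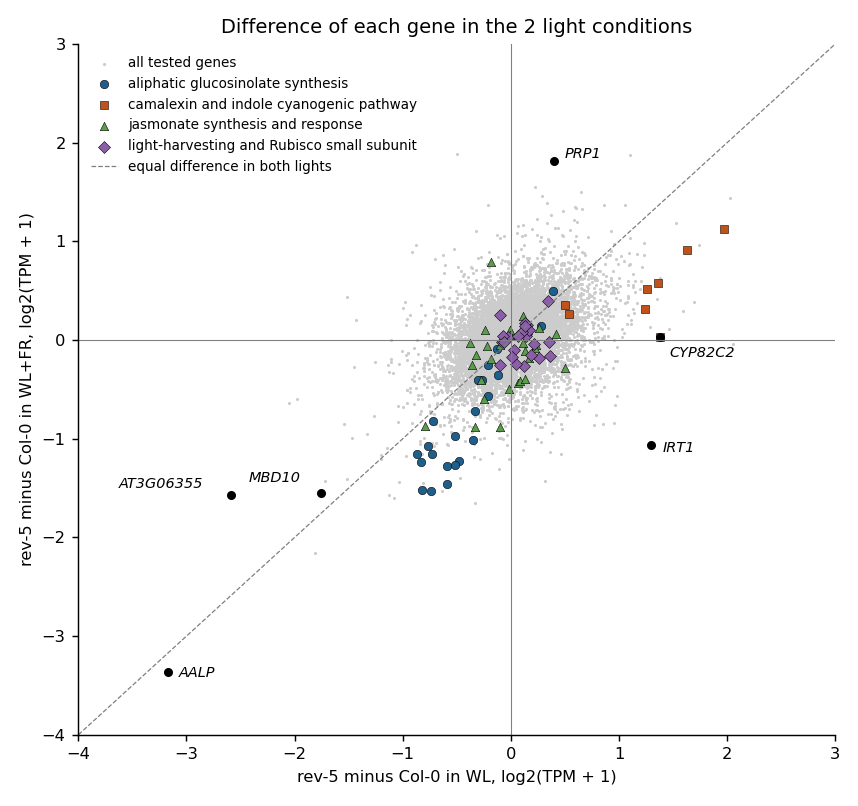
Each tested gene by its *rev-5* minus Col-0 difference in WL (horizontal axis) and in WL+FR (vertical axis), both in log2(TPM + 1), with members of 4 lists coloured and 6 named genes in black. Of the aliphatic glucosinolate genes 21 of 23 lie below the dashed line of equal differences, as do all 8 camalexin and cyanogenic genes, and *IRT1* lies at 1.3 in WL and −1.06 in WL+FR.

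Among the 12 genes with the largest called increases 7 encode cell wall proteins or peroxidases, several of them known from root hairs. *PRP1*, a proline-rich protein specific to the root (*AT1G54970*, chromosome 1, 20504901 to 20506504), stood at 1.701 and 1.201 TPM in Col-0 and at 7.96 and 7.10 TPM in *rev-5*. The difference was 1.81 ± 0.18 (adjusted p 0.000163). In WL *PRP1* stood at 2.22 and 1.42 TPM in Col-0 and 2.58 and 2.81 TPM in *rev-5*, and the difference between the lights was 1.40 ± 0.26 (adjusted p 0.0462). That call was lost without each of the 8 libraries in turn except Col-0 replicate 2 of WL, with estimates of 1.2 to 1.55 where it was lost. *FLA6*, a fasciclin-like arabinogalactan protein, stood at 1.56 and 0.449 TPM in Col-0 and 4.31 and 4.97 TPM in *rev-5* (1.55 ± 0.31). *AT5G06630*, an extensin-like gene, stood at 2.62 and 1.91 TPM and 7.76 and 8.55 TPM (1.5 ± 0.21). The peroxidase genes *PER8* (1.39 ± 0.17) and *PER60* (1.37 ± 0.24), the latter annotated as root hair specific, were at most 1.28 TPM in Col-0 and at least 4.11 TPM in *rev-5*. *FLA6* was not called without Col-0 replicate 4, *rev-5* replicate 11 or *rev-5* replicate 12, nor *PER60* without Col-0 replicate 3, while *PRP1*, *PER8* and *AT5G06630* held.

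Extensins are rod-like glycoproteins that cross-link the wall, and all 6 tested genes with an EXT symbol were called higher. Genes with such a symbol that did not pass the filter were not counted. *EXT12* stood at 4.09 and 2.72 TPM in Col-0 and 9.85 and 10.7 TPM in *rev-5* (1.37 ± 0.22, adjusted p 0.00378). *EXT6* (1.35 ± 0.25), *EXT13* (1.31 ± 0.20), *EXT10* (1.22 ± 0.22) and *EXT2* (0.75 ± 0.19) followed. *EXT3*, which is needed to build the wall of the embryo, was the most abundant, at 1279 and 1190 TPM in Col-0 and 1735 and 1743 TPM in *rev-5* (0.49 ± 0.06). *EXT6* lost its call without Col-0 replicate 4, *rev-5* replicate 11 or *rev-5* replicate 12. The group was gathered after its values were seen, its members share repeats so that reads can be split between them, and 3 of the 6 were called without Col-0 replicate 4 or without *rev-5* replicate 12. In WL the 6 differences lay between 0.48 and 1.06, and the difference between the lights was not called for any of them.

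Of the 5 root hair markers, all tested, 1 was called and all 5 lay above 0, with a median of 0.48. *PRP3*, a proline-rich wall protein, stood at 10.4 and 7.09 TPM in Col-0 and 18.9 and 14.6 TPM in *rev-5* (0.87 ± 0.21, adjusted p 0.0368). *EXPA7* (0.68 ± 0.20), *RSL4* (0.48 ± 0.24), *EXPA18* (0.43 ± 0.24) and *COBL9* (0.39 ± 0.18) were not called. After quantile normalization 0 of the 5 markers were called, and with FPKM in place of TPM 1 was. The summed level of the 5 was 19.0 to 26.1 TPM in Col-0 and 34.7 to 41.5 TPM in *rev-5* in WL+FR. In WL it was 22 to 28 TPM in Col-0 and 29 TPM in *rev-5*. Of 19 genes annotated ROOT HAIR SPECIFIC, a set taken up after the values were seen, 16 were tested. In WL+FR 15 of them lay above 0 with a median of 0.43 and 3 were called. In WL 10 lay above 0 with a median of 0.19 and 0 were called. The set holds *PER60*, and its largest WL+FR difference, 1.81, equals that of *PRP1*. It is thus not separate from the increases already given.

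The 4 markers of the root endodermis summed to 160 to 164 TPM in Col-0 and 177 to 189 TPM in *rev-5*, with 0 called and a median of 0.14. The part of tissue share in these increases was not tested. Phloem and guard cell markers had 0 of 3 called each, with medians of −0.2 and −0.03, and all 3 phloem markers lay below 0. The 2 tested shoot meristem markers lay below 0 (median −0.23) and the 3 tested senescence markers above 0 (median 0.19), with 0 called. The 9 seed storage genes summed to at most 1.37 TPM in the 4 libraries.

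**Figure D4:**
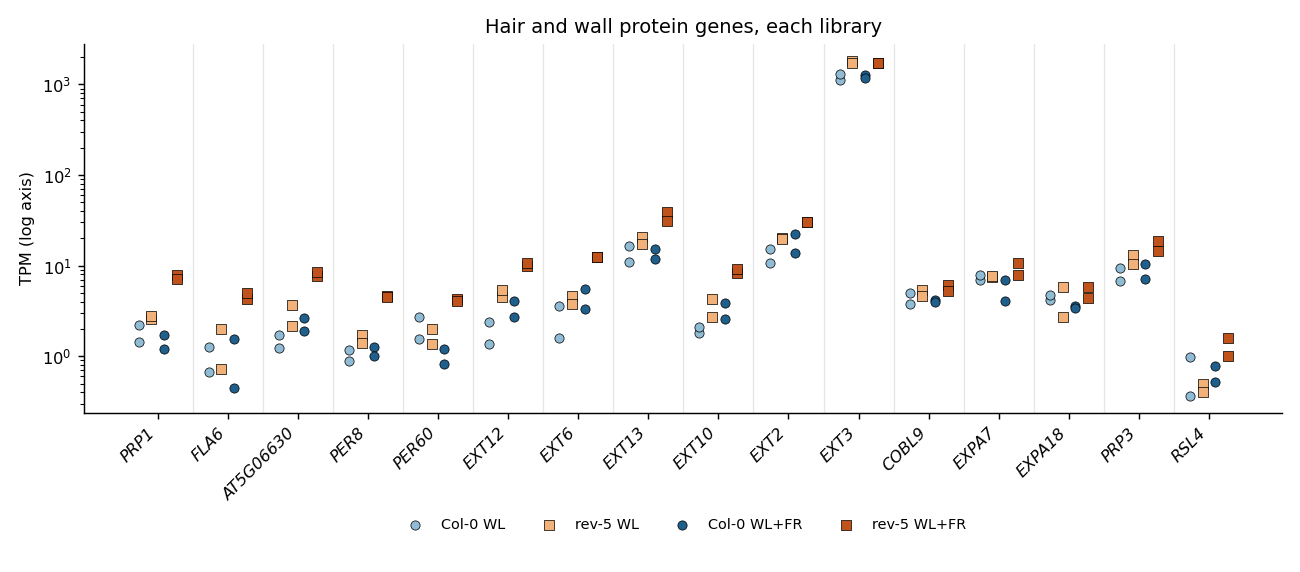
TPM on a log axis of 5 wall protein and peroxidase genes, the 6 tested genes with an EXT symbol and the 5 root hair markers, 1 point per library and 2 libraries per group. For *PRP1*, *PER8* and *PER60* both *rev-5* libraries in WL+FR (dark orange) lie above all libraries of the other 3 groups, and *EXT3* lies far above the rest in every group.

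Other large increases carried no shared annotation. *AT4G18372*, a small nuclear ribonucleoprotein gene, stood at 14.0 and 14.5 TPM in Col-0 and at 68.0 and 45.3 TPM in *rev-5* (1.89 ± 0.35). In WL it stood at 55.3 and 50.1 TPM in Col-0 and at 26.4 and 51.9 TPM in *rev-5*. *AT3G29644*, a long non-coding RNA antisense to a pseudogene, differed by 1.87 ± 0.34, and by 1.88 in the libraries labelled wox4 against the same Col-0 libraries. Neither kept its call without Col-0 replicate 4 or without *rev-5* replicate 11, and *AT4G18372* did not without Col-0 replicate 3. *BAP2*, which restrains cell death in *Arabidopsis*, stood at 1.85 and 1.96 TPM in Col-0 and 5.43 and 8.99 TPM in *rev-5* (1.46 ± 0.25), a call lost without *rev-5* replicate 12. *AT4G18372* and *AT3G29644* overlap annotated neighbours, so their reads cannot be assigned with certainty. *AT3G55790*, an uncharacterised gene, was higher in both lights (1.44 ± 0.26 in WL+FR and 2.03 ± 0.26 in WL). Its WL+FR call was lost without Col-0 replicate 3 or *rev-5* replicate 12, and that of *AT4G31530* (1.37), the last of the 12, without any 1 library.

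The largest decrease was that of *AALP*, an aleurain-like cysteine protease of the vacuole. *AALP* (*AT5G60360*, chromosome 5, 24279660 to 24282482) stood at 79.2 and 72.8 TPM in Col-0 and at 4.76 and 8.71 TPM in *rev-5* (−3.36 ± 0.19, adjusted p 2.28e-06). In WL it stood at 68.5 and 69.5 TPM in Col-0 and at 6.02 and 7.64 TPM in *rev-5* (−3.17 ± 0.19). *AALP* lies 114.5 kb from *REV* on the same chromosome, and within 1 Mb of *REV* it was the only 1 of 415 tested genes past the stricter threshold, with 23 of the 415 called. Over all 18788 tested genes 31 (0.165%) passed that threshold and 870 (4.63%) were called.

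Several other genes were low in *rev-5* in both lights. *MBD10*, a methyl-CpG-binding domain protein, stood at 192 and 205 TPM in Col-0 and 69.9 and 64.8 TPM in *rev-5* (−1.55 ± 0.06), and differed by −1.76 ± 0.06 in WL. *AT1G68945*, an uncharacterised gene, differed by −1.43 ± 0.07 and −1.72, and *AT5G05060*, a cystatin-type gene, by −1.41 ± 0.11 and −1.52. The snoRNA gene *AT5G02575* differed by −2.16 ± 0.29 and −1.81, on only 4 to 19 estimated fragments in the WL+FR libraries. *AT3G06355*, a non-coding transcript that overlaps a 5.8S ribosomal RNA gene on chromosome 3, stood at 191 TPM in both Col-0 libraries and 70.8 and 56.9 TPM in *rev-5*. Its difference was −1.57 ± 0.09 in WL+FR and −2.59 ± 0.09 in WL, and that between the lights was 1.02 ± 0.12 (adjusted p 0.00372). *AT1G66100*, a thionin, differed by −1.60 ± 0.14 and −1.08. *AT5G38930*, a cupin-type gene, differed by −1.53 in WL+FR, a call lost without Col-0 replicate 3 or *rev-5* replicate 12.

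Lipid-transfer-type proteins, small secreted proteins of the cell surface, formed a further group that was gathered after the values were seen. On chromosome 4, 6 of 8 tested genes between *AT4G22460* and *AT4G22517* were called lower and 0 higher. *AT4G22513* stood at 331 and 346 TPM in Col-0 and at 110 and 139 TPM in *rev-5* (−1.45 ± 0.12), and *AT4G22517* at 294 and 262 TPM and 89.8 and 116 TPM (−1.44 ± 0.10). These genes are tandem copies, some overlap each other or *AT4G22510*, and the split of reads between them is uncertain. The 6 calls held when any 1 library was left out. *EARLI1*, a relative on the same chromosome, fell from 12.8 and 17.5 TPM to 3.91 and 4.24 TPM (−1.65 ± 0.25), and its neighbour *AZI1*, which acts in systemic immunity, from 72.3 and 71.6 TPM to 37.7 and 36.8 TPM (−0.93 ± 0.08).

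Some genes had opposite differences in the 2 lights. Called in both lights with opposite signs were 10 genes, all lower in *rev-5* in WL+FR and higher in WL. *IRT1* (*AT4G19690*, chromosome 4, 10707344 to 10709015), the iron transporter of the root surface, stood at 37.7 and 29.7 TPM in Col-0 and at 14.0 and 17.1 TPM in *rev-5* in WL+FR (−1.06 ± 0.16, adjusted p 0.003). In WL it stood at 21.7 and 20.3 TPM in Col-0 and at 57.2 and 49.7 TPM in *rev-5* (1.3 ± 0.16, adjusted p 0.00054). The difference between the lights was −2.37 ± 0.23 (adjusted p 0.00126). *FER1*, a ferritin that stores iron, went the same way, at −0.29 ± 0.06 in WL+FR and 0.40 ± 0.06 in WL. The others of the 10 were *LHCB1.1*, *LHCB1.2*, *LHCB2.1*, *EXPA4*, *LEC*, *RTFL6*, *AOS* and *AT4G39675*.

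*IRT1* and *FER1* were the only members of the iron list called in opposite directions in the 2 lights. Of its 27 tested members 2 were higher and 3 lower in WL+FR, and 11 were higher and 0 lower in WL. Over all tested genes 2.44% were higher and 2.19% lower in WL+FR, and 3.42% and 2.67% in WL. In the difference between the lights 23 of the 27 iron genes lay below 0, with a median of −0.24, and 2 were called. *F6H1*, which makes the coumarin scopoletin for iron mobilisation, was higher in WL+FR, from 67.9 and 66.5 TPM to 118 and 112 TPM (0.77 ± 0.08, adjusted p 0.000143). *PDR9*, which exports coumarins, was higher by 0.37 ± 0.08, and the nicotianamine synthase *NAS1* was lower by −0.33 ± 0.07. *NAS1* lost its call without Col-0 replicate 3 or *rev-5* replicate 11. The calls of *FER1* and *PDR9* were lost when any 1 of the 4 libraries was left out.

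*EXPA4*, an expansin that loosens walls, stood in WL+FR at 115 and 110 TPM in Col-0 and at 84.2 and 83.9 TPM in *rev-5* (−0.41 ± 0.06, adjusted p 0.00144). In WL it was higher in *rev-5* (0.33 ± 0.06), and the difference between the lights was −0.74 ± 0.08 (adjusted p 0.00246). Of 24 tested expansins and wall-remodelling XTH enzymes 5 were lower in WL+FR and 0 higher, with a median of −0.15. All tested genes had 2.19% lower and 2.44% higher. Besides *EXPA4*, the lower members were *XTH24* (−0.38 ± 0.05), *EXPA9* (−0.37 ± 0.07), *XTH16* (−0.30 ± 0.06) and *XTH4* (−0.28 ± 0.04). The count of 5 was 3 without Col-0 replicate 3 and without *rev-5* replicate 11. In WL 3 members were higher and 2 lower.

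Genes of light-harvesting proteins changed little and in both directions. Of 25 tested genes of light-harvesting proteins and of the Rubisco small subunit 7 were lower and 3 higher in WL+FR, with a median of 0.03. Over all tested genes the shares were 2.19% and 2.44%. *LHCB1.1*, an antenna protein of photosystem II, stood at 5458 and 5285 TPM in Col-0 and at 4701 and 4791 TPM in *rev-5* (−0.18 ± 0.03). In WL it was higher in *rev-5* (0.26 ± 0.03), where the list had 9 higher and 0 lower. The difference between the lights was called for 6 members, all below 0. After quantile normalization 3 members stayed lower and 1 higher, and the WL+FR difference of *LHB1B2*, −0.25 ± 0.03 here, became 0. That method gives genes of equal rank the same value in every library. It can thus set differences of the most abundant genes to 0 whatever their change, and is no test of them. Without the trend in the spread 0 were called lower, and without *rev-5* replicate 12 there were 4. *RBCS1B* (0.17 ± 0.04), *RBCS2B* (0.14 ± 0.03) and *LHCA5* (0.40 ± 0.09) were the higher genes. The calls of *LHCA5* and *RBCS2B* were lost without any 1 library, and that of *RBCS1B* without any except *rev-5* replicate 11. Of 3 markers of green leaf tissue 2 were called lower in WL+FR and 2 higher in WL, and their summed level was 14300 to 14900 TPM in Col-0 and 13600 to 14200 TPM in *rev-5* in WL+FR. The part of leaf tissue in these values was not tested. Antenna genes are near-identical copies, and the split of reads between them is uncertain.

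**Figure D5:**
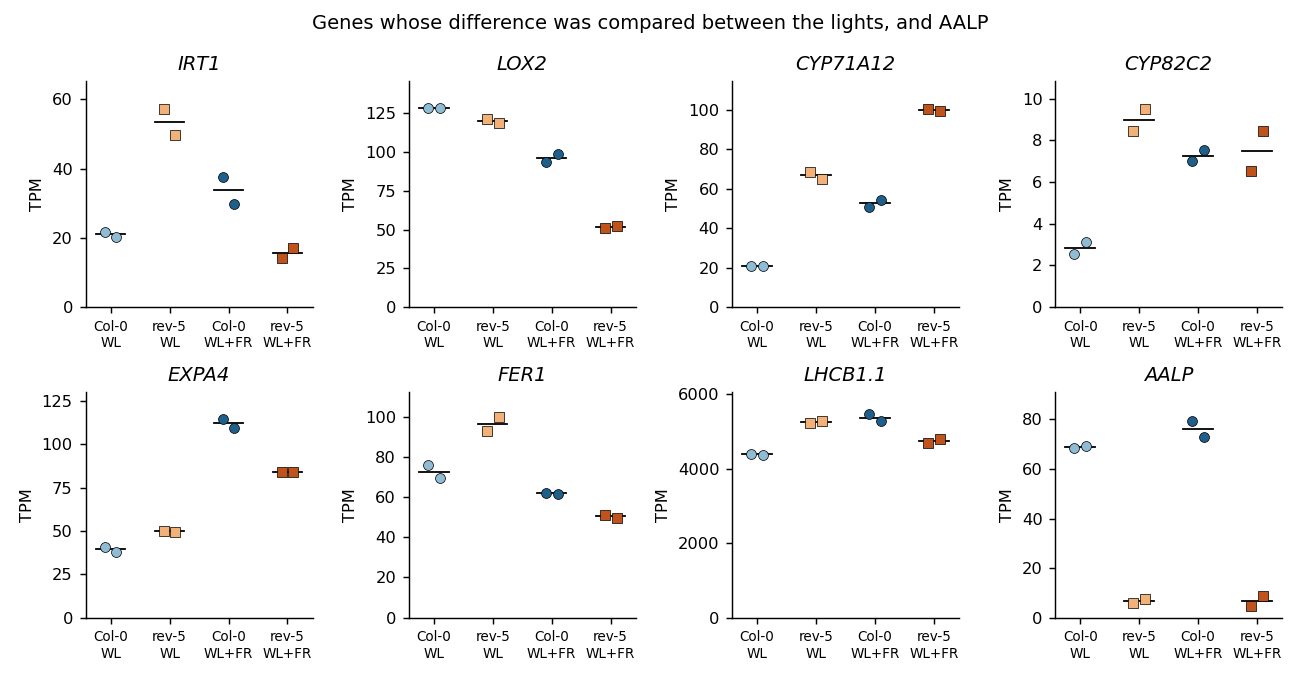
TPM in each library for *IRT1*, *LOX2*, *CYP71A12*, *CYP82C2*, *EXPA4*, *FER1*, *LHCB1.1* and *AALP*, with 2 points per group, a bar at their mean and axes that start at 0. *IRT1* is lower in *rev-5* than in Col-0 in WL+FR and higher in WL, *LOX2* is lowest in *rev-5* in WL+FR, and *AALP* is low in *rev-5* in both lights.

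The test of the difference between the lights called 75 genes (0.399%), 22 above 0 (0.117%) and 53 below 0 (0.282%). Besides those already given, the 5 with the smallest p in each direction included *GER3*, a germin-like protein, *RBG7*, a clock-controlled RNA-binding protein, and the catalase *CAT3*. *GER3* stood at 1936 and 1877 TPM in Col-0 and 1881 and 1889 TPM in *rev-5* in WL+FR, but at 2621 and 2552 TPM and 1965 and 1920 TPM in WL. The difference between the lights was 0.40 ± 0.04 for *GER3*, 0.43 ± 0.06 for *RBG7* and 0.33 ± 0.05 for *CAT3*. The uncharacterised gene *AT4G39675* had −0.81 ± 0.07. The count of 75 was 21 to 59 when any 1 of the 8 libraries was left out, and at most 48 without each of them except Col-0 replicate 4 of WL+FR. Without the trend in the spread limma called 0.

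Few genes of patterning and of shade signalling were called, where 4.63% of all tested genes were. Counts this small in short lists do not set them apart from that share. *REV* stood at 6.0 and 6.96 TPM in Col-0 and 6.37 and 6.67 TPM in *rev-5*, and the 95% interval of the difference ran from −0.27 to 0.29. Class III HD-ZIP, ZPR and KANADI genes had 0 of 12 called, with a median of −0.04. *KAN1*, which antagonises *REV* in leaves, stood at 10.2 and 9.57 TPM in Col-0 and 7.90 and 7.70 TPM in *rev-5* (interval −0.62 to 0.02). *WOX4*, a cambium regulator, stood at 2.82 and 3.93 TPM and 2.38 and 2.46 TPM (interval −0.72 to 0.03). The groups did not overlap for *KAN1* and *WOX4*, as for 21.3% of all tested genes. *ZPR3*, a small protein that inhibits class III HD-ZIP factors, differed by −0.52 ± 0.22, and *KAN2* by 0.10 ± 0.16.

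*ATHB2*, a class II HD-ZIP gene that far-red light induces, stood at 36.6 and 41.3 TPM in Col-0 and 31.8 and 31.0 TPM in *rev-5* in WL+FR, against 9.30 and 7.57 TPM and 7.64 and 8.73 TPM in WL. Its levels thus match the light labels of all 8 libraries. The WL+FR difference was −0.30 ± 0.12 (adjusted p 0.221, interval −0.57 to −0.03). The class II HD-ZIP list had 0 of 9 called, with *ATHB4* (−0.01 ± 0.19), *HAT1* (0.02 ± 0.09), *HAT2* (−0.17 ± 0.09) and *HAT3* (0.04 ± 0.12) close to 0. *PHYB*, the main photoreceptor of shade, stood at 70.4 and 72.1 TPM and 72.8 and 69.8 TPM (interval −0.14 to 0.14). *PIF3* (0.30 ± 0.11), *PIF4* (−0.01 ± 0.06) and *PIF7* (−0.11 ± 0.16) were not called. Of 24 tested light signalling genes 1 was called, against 4.63% of all tested genes. This was *PAR2*, an atypical bHLH protein that limits elongation, which fell from 47.9 and 45.3 TPM to 34.7 and 31.8 TPM (−0.48 ± 0.08). Its call was lost without Col-0 replicate 3 or *rev-5* replicate 12.

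Hormone and vascular lists gave few calls, as did all tested genes (4.63% called). Of 32 auxin genes 2 were lower, the influx carrier *LAX2* (−0.61 ± 0.12) and the conjugating enzyme *GH3.3* (−0.64 ± 0.16), while *TAA1* (−0.23 ± 0.23) and *YUC5* (0.24 ± 0.22) of auxin synthesis were not called. *GH3.3* had an adjusted p of 0.047 and lost its call without Col-0 replicate 3, Col-0 replicate 4 or *rev-5* replicate 12, and *LAX2* lost its call without Col-0 replicate 3, Col-0 replicate 4 or *rev-5* replicate 11. Of 12 brassinosteroid genes 1 was higher, the synthesis enzyme *CPD*, from 129 and 136 TPM to 181 and 176 TPM (0.43 ± 0.05, adjusted p 0.000356). Gibberellin (0 of 17) and cytokinin genes (0 of 13) were not called. The same held for xylem (0 of 26), monolignol (0 of 18), flavonoid (0 of 14), cuticular wax (0 of 14) and clock genes (0 of 21). *TED7*, a xylem gene, stood at 60.8 and 39.3 TPM in Col-0 and 53.0 and 56.5 TPM in *rev-5* (interval −0.26 to 0.58), whereas in WL it was higher in *rev-5* (1.11 ± 0.19). The difference between the lights was −0.95 ± 0.27 and was not called (adjusted p 0.234). Of 10 cambium regulators *SMXL5* was lower (−0.51 ± 0.11), but not without Col-0 replicate 4, *rev-5* replicate 11 or *rev-5* replicate 12.

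Of 12 tested genes of nitrate reduction and ammonium assimilation 3 were higher and 0 lower, against 2.44% and 2.19% of all tested genes. *GLU1*, a glutamate synthase, stood at 68.2 and 70.2 TPM in Col-0 and 87.0 and 89.9 TPM in *rev-5* (0.35 ± 0.06), the nitrite reductase *NIR1* differed by 0.20 ± 0.04 and the glutamine synthetase *GLN2* by 0.29 ± 0.07. Against the same Col-0 libraries those labelled wox4 had 0.38, 0.17 and 0.38 for these genes. The phosphate transporter *PHT1;1* was the only 1 of 14 phosphate genes called (0.32 ± 0.07). The calls of *NIR1*, *GLN2* and *PHT1;1* were lost when any 1 of the 4 libraries was left out, and that of *GLU1* without *rev-5* replicate 12.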

How the data were processed

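RNA-seq was done on whole seedlings of 6 groups with 2 libraries each. The authors aligned reads to TAIR10 with HISAT2 and deposited FPKM values per gene. The submitters' notes also list FastQC, Bowtie2 and Cufflinks, and the program that made the FPKM values and the strand setting are not given in the sources used here. The authors' own test on read counts was not used. Of 32824 gene identifiers, 4 duplicated rows were left out, and 32508 genes had the same start and end in the RefSeq annotation of TAIR10.1. FPKM values were rescaled to TPM, genes above 0 in all 12 libraries with a mean TPM of at least 0.5 were kept, and limma 3.58.1 in R 4.3.3 took log2(TPM + 1), with 1 mean per group and a prior spread that follows the level. Python 3.11.15, pandas 2.3.3 and matplotlib 3.10.9 were used for the rest, and the fitting step was tested on simulated data.

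The authors give total depth only as a range of read pairs over the samples, not for each library. From the confidence bounds deposited beside the FPKM values, taken as Poisson bounds, relative depth was estimated at 0.903 to 1.005, with a median of 139 to 161 fragments per tested gene over the 12 libraries. The 10 most abundant genes took 12.9% to 18.65% of each library, and 11662 to 11932 genes were listed at 0. Named genes were the 12 largest called increases and decreases without overlap of the groups, genes the study names, up to 3 members per direction of each list with the smallest p, and 5 per direction of the difference between the lights. Other genes were named after their values were seen. The compared groups and the gene lists were chosen with earlier results of these data known. Alternatives changed the pseudocount, filter, scaling, trend, libraries fitted and thresholds.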

Additional observations from a re-analysis of the deposited data

Results flagged for a closer look

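For 20 named genes the *rev-5* minus Col-0 difference in WL+FR departed from that in WL by limma's test of the difference itself, at an adjusted p under 0.05. Values are the WL+FR difference minus the WL difference in log2(TPM + 1), over 2 libraries in each of 4 groups. Without the trend in the spread none of them was called.

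Among defence genes the value was −0.87 for *CYP83A1* (adjusted p 0.00246), −0.66 for *GSTU20* (0.00246), −0.27 for *GSTF9* (0.0335) and 0.45 for *TGG1* (0.00815). It was −0.71 for *CYP71A12* (adjusted p 0.0041), −0.84 for *FOX2* (0.0172), −0.78 for *FOX1* (0.0204), −1.35 for *CYP82C2* (0.0248) and −0.78 for *LOX2* (0.00126).

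Among genes of iron, walls and photosynthesis it was −2.37 for *IRT1* (adjusted p 0.00126), −0.69 for *FER1* (0.0061), −0.74 for *EXPA4* (0.00246) and 1.40 for *PRP1* (0.0462). It was −0.38 for *LHCB2.1* (adjusted p 0.00367) and −0.44 for *LHCB1.1* (0.00126). For the other genes it was 1.02 for *AT3G06355* (adjusted p 0.00372), 0.40 for *GER3* (0.00246), 0.43 for *RBG7* (0.0061), 0.33 for *CAT3* (0.00913) and −0.81 for *AT4G39675* (0.00126). Of the 16 alternatives run for each, the call held in 5 for *GSTF9*, where it was lost without any 1 of the 8 libraries, in 3 for *PRP1*, in 7 for *CYP82C2*, in 7 for *FOX1* and in 9 for *FOX2*. It was lost for *CAT3* without Col-0 replicate 1 or *rev-5* replicate 10 of WL and for *TGG1* without *rev-5* replicate 9 of WL. For *LHCB1.1* it was lost after quantile normalization, which can level very abundant genes whatever their change.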

How the results depend on the processing

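No paired analysis was possible because the replicate numbers, 1 to 12, are not shared between groups. None of 88 called values of named genes reversed under any alternative run, and 34 kept their call under all of them. The value of *LHB1B2* went to 0 after quantile normalization, which levels genes of equal rank and so does not test a gene that abundant.

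Without the trend in the spread 9 in place of 31 genes passed the stricter threshold, 295 in place of 870 were called, and 39 in place of 70 list members and 43 in place of 68 named genes were called. That setting called 0 in place of 75 genes in the difference between the lights, 0 in place of 7 light-harvesting genes lower and 2 in place of 5 expansin and XTH genes lower. With only the compared libraries in the fit the counts were 3 at the stricter threshold, 452 called, 34 for the difference between the lights and 3 expansin and XTH genes. With the 8 Col-0 and *rev-5* libraries the difference between the lights called 34 and the jasmonate list 3 in place of 6. Quantile normalization, which can level the most abundant genes whatever their change, left 3 light-harvesting genes lower. At an adjusted p under 0.01 with the same fold 56 genes passed, and 1618 had an unadjusted p under 0.01.

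With 1 library left out the counts ran from 18 to 30 at the stricter threshold, 347 to 542 called, 43 to 50 list members, 46 to 50 named genes and 21 to 59 for the difference between the lights. They ran from 3 to 4 for the jasmonate list, 4 to 5 for the light-harvesting list and 3 to 4 for the expansin and XTH list. Of the genes called, 52.6% were higher in *rev-5*, 48.5% after quantile normalization and 45.7% with FPKM in place of TPM. With 2 libraries a group the lone library of a shortened group is assumed to vary like the others. Depth in reads is not given for each library, and low genes carry the largest error.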

Other observations

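Genes listed at 0 in any library were not tested, among them 1230 whose mean reached 0.5 TPM. A value of 0 can be a failed estimate, so levels are given per library with no fold. In WL+FR 22 genes had 0 in both libraries of Col-0 and 2 FPKM or more in both of *rev-5*. *MRD1* was at 57.0 and 62.3 FPKM in *rev-5*, had 0 in Col-0 in WL too, and stood at 59.1 and 49.4 FPKM in *rev-5* in WL. *QQS*, a regulator of starch content, was at 3.34 and 3.52 FPKM in *rev-5*, and at 1.97 and 1.94 FPKM in Col-0 and 4.17 and 2.75 FPKM in *rev-5* in WL. *PAP17*, a phosphatase of phosphate starvation, was at 12.2 and 12.5 FPKM in *rev-5* in WL+FR. In WL it was at 17.9 and 17.6 FPKM in Col-0 and at 16.7 and 19.9 FPKM in *rev-5*. *PAM68*, an assembly factor of photosystem II, was at 38.5 and 33.4 FPKM in *rev-5* in WL+FR. In WL it was at 44.2 and 50.6 FPKM in Col-0 and at 50.5 and 43.3 FPKM in *rev-5*. Of these 4 named genes, *MRD1*, *PAP17* and *PAM68* overlap annotated neighbours.

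In the other direction 12 genes were listed at 0 in both *rev-5* libraries and at 2 FPKM or more in both Col-0 libraries. *AT1G47410* was at 9.17 and 9.28 FPKM in Col-0. *PUT4* was at 7.76 and 6.57 FPKM in Col-0 and overlaps *F6H1*, which was higher in *rev-5*. *NUP88* was at 7.34 and 6.90 FPKM in Col-0 and overlaps *CPD*, which was also higher in *rev-5*.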
